A study of Homo sapiens with 10 samples.

Results

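The genes described here are known in prostate cells to respond to androgen, the male sex steroid. They form a list of 31 genes chosen by name, with the kallikrein peptidases left out, and 27 of them were measured, out of 14313 genes in all. HERC3 was read only by probe sets that also carry another gene's symbol, and SORD, ACSL3 and MBOAT2 were not analysed here. All 27 measured genes passed the filter on dim probe sets.

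Total RNA of 2 human prostate cancer cell lines was measured on 10 Affymetrix expression arrays. DU145 is a line from a brain metastasis that grows without androgen, and LNCaP is a line from a lymph node metastasis that responds to it. In each line, 2 arrays held control cells with a vector in which the PGK promoter, active in nearly all cells, drives GFP and puromycin resistance, and 2 arrays held EOS cells, in which OCT4 and SOX2 enhancers drive the same 2 genes. The EOS cells were grown in puromycin for a few weeks, so that cells reading the enhancers were kept, and 1 further array per line held EOS cells number 2 given ribavirin, a guanosine analogue. All cells thus carried a GFP and puromycin resistance vector, and no group was of untransduced cells. The dose and duration of ribavirin and the androgen content of the medium are not given in the sources used here. The labels number the PGK and EOS arrays 1 and 2 but do not say that the numbers are separate cultures, so p-values here reflect only how far these arrays differ, and that may be technical.

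Androgen acts through a nuclear receptor that, once bound by hormone, binds DNA at inverted repeats called androgen response elements, often in enhancers far from the gene. FOXA1 is a pioneer factor that opens chromatin for it. In the luminal cells of the prostate, this programme switches on secreted proteins, surface proteases and transporters, and enzymes of sugar and lipid handling. Some of its genes, such as FKBP5 and SGK1, are also targets of the glucocorticoid receptor.

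The promoters of the listed genes were read from RefSeq windows on GRCh38.p14 that run from 250 bases before a gene's start to 50 after it, and 24 of the 31 genes matched, with 49 windows. The full element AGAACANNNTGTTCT stood in 0 of these windows and in 1 of the 35116 windows of all genes. A single arm of the element, TGTTCT on either strand, stood in 10.2% of the windows of the listed genes and in 14.8% of all windows, and the forkhead motif TGTTTAC, on either strand, in 4.08% and 3.42%. The arms were in windows of FKBP5, PMEPA1, SGK1 and TRPM8, and the forkhead motifs in windows of SLC43A1 and STEAP2. In FKBP5, SGK1 and TRPM8, the windows at the gene's other starts held no arm. The TRPM8 window with the arm lies downstream of all its others. The windows below are shown because their genes return in the results, with the arm or the forkhead motif in capitals and the gene's own strand read 5′ to 3′. They are FKBP5 at chr6:35728534-35728833 on the minus strand, SGK1 at chr6:134177812-134178111 on the minus strand, TRPM8 at chr2:233979899-233980198 on the plus strand and STEAP2 at chr7:90213570-90213869 on the plus strand.
FKBP5: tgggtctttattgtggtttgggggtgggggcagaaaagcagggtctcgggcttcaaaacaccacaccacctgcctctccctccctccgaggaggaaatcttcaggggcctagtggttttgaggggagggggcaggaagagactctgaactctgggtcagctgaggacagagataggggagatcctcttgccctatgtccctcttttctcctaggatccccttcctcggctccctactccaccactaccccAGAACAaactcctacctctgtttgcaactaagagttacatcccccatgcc
SGK1: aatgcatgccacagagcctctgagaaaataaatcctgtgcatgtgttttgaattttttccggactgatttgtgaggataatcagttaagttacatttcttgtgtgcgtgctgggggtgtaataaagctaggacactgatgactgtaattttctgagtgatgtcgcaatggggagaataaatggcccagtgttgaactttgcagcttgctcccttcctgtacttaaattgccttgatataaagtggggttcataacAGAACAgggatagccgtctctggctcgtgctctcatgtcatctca
TRPM8: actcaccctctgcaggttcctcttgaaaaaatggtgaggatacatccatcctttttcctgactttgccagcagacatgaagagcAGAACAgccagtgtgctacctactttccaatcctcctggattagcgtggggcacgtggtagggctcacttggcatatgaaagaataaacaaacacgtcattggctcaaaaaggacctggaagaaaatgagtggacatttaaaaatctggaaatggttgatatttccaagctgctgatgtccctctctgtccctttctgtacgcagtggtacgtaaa
STEAP2: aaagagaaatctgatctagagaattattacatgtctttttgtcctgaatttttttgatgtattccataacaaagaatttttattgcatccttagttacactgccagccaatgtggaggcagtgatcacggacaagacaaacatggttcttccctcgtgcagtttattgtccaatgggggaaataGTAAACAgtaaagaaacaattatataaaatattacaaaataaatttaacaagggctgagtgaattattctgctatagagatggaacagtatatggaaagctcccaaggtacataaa
A match describes these letters only and was not tested as a binding site.

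Values below are log2(intensity + 16) after each array was scaled to a trimmed mean of 500, so that 4 is the floor. A level is compared only between arrays of the same probe set, never between genes, and a difference of 1 on this scale is a doubling, somewhat understated for dim genes. Values of a line are given in the order PGK 1, PGK 2, EOS 1, EOS 2 and ribavirin. The deposited trimmed mean was 500 in the 4 arrays numbered 1 and 96.6 to 127 in the 6 numbered 2. ACTB's 3′ probe set over its 5′ one, a measure of RNA length, was 1.24 to 1.51 in number 1 and 3.20 to 3.99 in number 2. The same ratio for GAPDH differed far less, at 0.959 to 1.06 in number 1 and 1.09 to 1.22 in number 2. The 5 markers of luminal epithelium (KRT8, KRT18, EPCAM, CDH1 and HOXB13) were all called higher in LNCaP, and 3 of the 5 within each of the PGK, EOS and ribavirin states. However, KRT18 (0.36) overlapped between the lines and was not called with the replicate block. KRT8 (1.88) overlapped too, at 11.84 in DU145 PGK 1 and 10.89 in LNCaP PGK 2. Among PGK controls KRT8 was at 0.53 (limma adjusted p = 0.675). VIM and CD44, mesenchymal features of DU145, were called lower in LNCaP. Summed scaled intensities of other cell types' markers were 57.2 to 147 for 3 of 4 listed leukocyte genes, 80.8 to 304 for 3 endothelial genes and 305 to 1150 for 5 fibroblast genes. Not all of these markers were dim. The fibroblast gene COL1A1 was above the array's median in 10 arrays, at 7.52 to 9.47, and the endothelial genes PECAM1 and VWF in 9 and 4. Each other marker was above it in at most 3 arrays. In LNCaP PGK 2, MET, a receptor kinase known to be repressed by androgen, was at 9.04, against 5.01 to 6.16 in the other LNCaP arrays and 10.62 to 11.29 in DU145.

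Between the lines, 22 of the 27 genes were higher in LNCaP and 0 were lower, over the PGK, EOS and ribavirin states together. The median difference of the 27 genes was 2.44, against -0.04 over all genes. Of all 14313 genes, 23.5% were called higher and 24.9% lower (limma with Benjamini-Hochberg adjustment at 0.05). The genes' share of higher calls stood well above the background and their share of lower calls below it. However, 8 of the 27 were above the array's median in 0 DU145 arrays. These 8 passed the filter on dim probe sets through LNCaP alone and had little room to be called lower. Without that filter the same 22 genes were called, against 6734 of 19775 genes called in either direction. Dropping the filter leaves the values of the 8 dim genes as they are, so it does not address that limit. The values cannot tell fewer cells expressing a gene from less RNA per cell. In 21 of the 27 genes, the 8 dim in DU145 among them, all 5 LNCaP arrays lay above all 5 DU145 arrays. The same was so for 20.4% of all genes.

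Among the surface proteins and transporters, TMPRSS2 had the largest difference of all 27 genes. TMPRSS2, a membrane serine protease, was at 4.54, 5.51, 4.61, 4.49 and 5.64 in DU145 and at 12.67, 11.79, 13.20, 13.15 and 13.40 in LNCaP. Every DU145 array was near the floor and every LNCaP array was high, with no overlap. The difference was 7.86 ± 0.26 (SE, drawn from a spread common to the 6 groups, limma adjusted p = 1.43e-07). No fold is given, since every DU145 array lay below its median for this gene. SLC45A3, a sugar transporter of the prostate also called prostein, was at 7.18, 7.06, 6.57, 7.24 and 7.63 in DU145 and at 11.74, 10.38, 11.95, 11.42 and 11.84 in LNCaP. LNCaP PGK 2 was the lowest of its line but still above every DU145 array, and the difference was 4.31 ± 0.29, or 19.8-fold (limma adjusted p = 7.27e-06). The metalloreductases STEAP2 and STEAP1, the carboxypeptidase FOLH1 (prostate-specific membrane antigen) and the amino acid transporter SLC43A1 were also called higher, by 4.20, 3.57, 3.96 and 3.61. Their ranges did not overlap between the lines: STEAP1, for example, ran from 10.28 to 10.87 in DU145 and from 14.01 to 14.40 in LNCaP.

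The secreted proteins were low in DU145 and uneven in LNCaP. AZGP1, a zinc-binding glycoprotein of prostatic fluid, was at 5.15, 5.09, 5.60, 5.90 and 5.22 in DU145 and at 10.85, 11.04, 10.16, 12.89 and 13.60 in LNCaP. The lines did not overlap, and within LNCaP the EOS 2 and ribavirin arrays stood above the other 3. The difference was 6.66 ± 0.47 (limma adjusted p = 9.2e-06), with no fold given, since AZGP1 lay below the array's median in every DU145 array. ACP3, prostatic acid phosphatase, was at 4.65, 5.18, 4.41, 5.51 and 4.53 in DU145 and at 9.66, 7.51, 9.50, 6.76 and 6.64 in LNCaP. MSMB, a small secreted protein of seminal plasma, was at 4.32, 5.53, 4.36, 5.35 and 5.26 in DU145 and at 7.52, 8.72, 7.35, 8.29 and 7.61 in LNCaP. Both were separate between the lines, with differences of 2.99 ± 0.64 and 2.83 ± 0.43, and in LNCaP the ACP3 values of the arrays numbered 1 stood above the rest. The cold-sensing channel TRPM8 followed the same course, at 4.29, 4.56, 5.58, 5.04 and 5.87 in DU145 and 9.92, 6.48, 10.13, 7.68 and 6.90 in LNCaP, with a difference of 2.80 ± 0.73. A second TRPM8 probe set, dim in both lines, differed by -0.17.

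Of the genes of transcription and signalling, ZBTB16 had the largest difference. ZBTB16 (PLZF), a zinc finger repressor, was at 4.25, 5.55, 4.38, 5.18 and 4.72 in DU145 and at 9.64, 9.13, 9.71, 10.22 and 10.18 in LNCaP, with no overlap. Its difference was 5.04 ± 0.33 (limma adjusted p = 6.02e-06), with no fold given, since ZBTB16 lay below the array's median in every DU145 array. FOXA1 was present in both lines, from 8.55 to 8.96 in DU145 and from 11.03 to 11.40 in LNCaP, a difference of 2.44 ± 0.15. CREB3L4, a membrane-bound transcription factor, differed by 2.05, the elongation factor ELL2 by 1.70, and EAF2, a partner of ELL proteins, by 0.63 (limma adjusted p = 0.0625), which did not pass. Another ELL2 probe set, above the median in all 10 arrays, went the other way, at -1.07. FKBP5, a co-chaperone of steroid receptors, was at 11.95, 12.04, 12.12, 12.15 and 12.15 in DU145 and at 13.90, 13.79, 14.18, 13.88 and 14.56 in LNCaP. It was thus abundant in the line that does not depend on androgen and still called higher in LNCaP, by 2.05 ± 0.10. PMEPA1, which restrains TGF-beta signalling, was higher by 2.06, the phosphatase INPP4B by 2.86 and LRIG1, a brake on EGF receptors, by 1.95.

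ABHD2, UAP1, TPD52 and ANKH, genes of metabolism and transport, were all called higher. ABHD2, a lipid hydrolase, was at 8.79, 9.21, 9.09, 9.45 and 9.01 in DU145 and at 13.05, 13.65, 13.57, 13.82 and 13.78 in LNCaP. The arrays of each line stayed close together, the difference was 4.52 ± 0.17, or 22.9-fold (limma adjusted p = 3.74e-07), and the other 5 ABHD2 probe sets gave 3.63 to 4.79. UAP1, an enzyme of UDP-N-acetylglucosamine synthesis, was higher by 2.39. TPD52, a protein of vesicle trafficking, was bright in both lines, at 13.83, 13.77, 13.72, 13.88 and 13.82 in DU145 and 13.98, 14.20, 14.01, 14.22 and 14.44 in LNCaP. It did not overlap and was called at 0.40 ± 0.10 (limma adjusted p = 0.00852), yet another TPD52 probe set differed by -1.50. ANKH, a pyrophosphate and citrate exporter, was called at 0.54 ± 0.18 (limma adjusted p = 0.0365), with overlapping lines and with other probe sets at -0.60 and -0.83, so its direction depends on the probe set.

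The genes that did not pass were CAMKK2, SGK1, STEAP4, TMEFF2 and EAF2. CAMKK2, a kinase upstream of AMPK, was at 10.41, 10.31, 9.91, 10.48 and 10.53 in DU145 and at 10.83, 9.87, 11.33, 10.49 and 10.27 in LNCaP, with a difference of 0.15 ± 0.26 (limma adjusted p = 0.669). Its other probe sets gave 1.03, 0.68 and, where mostly dim, 0.18, and over the mean of all its probe sets CAMKK2 was called higher, at 0.51 (limma adjusted p = 0.0251). SGK1, a kinase of sodium transport and survival, was at 9.52, 9.31, 9.41, 8.27 and 8.35 in DU145 and at 8.32, 9.05, 8.79, 8.74 and 10.31 in LNCaP, with a difference of 0.39 ± 0.26. Both genes overlapped between the lines, with the highest SGK1 value in the LNCaP ribavirin array. The metalloreductase STEAP4 was dim throughout, at 5.30, 6.23, 6.25, 4.29 and 4.72 in DU145 and 5.81, 7.42, 5.77, 6.50 and 4.56 in LNCaP. TMEFF2, a transmembrane protein of prostate and brain, overlapped between the lines on its probe set of highest mean over all arrays. That probe set ran from 8.32 to 9.16 in DU145 and from 8.49 to 9.74 in LNCaP. Another TMEFF2 probe set differed by 5.67, with 4.16 to 6.38 in DU145 and 6.19 to 13.59 in LNCaP. Over the mean of all its probe sets TMEFF2 was called higher. The TMEFF2 result thus depends on the probe set, and which of them reads the gene best was not tested.

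**Figure D1:**
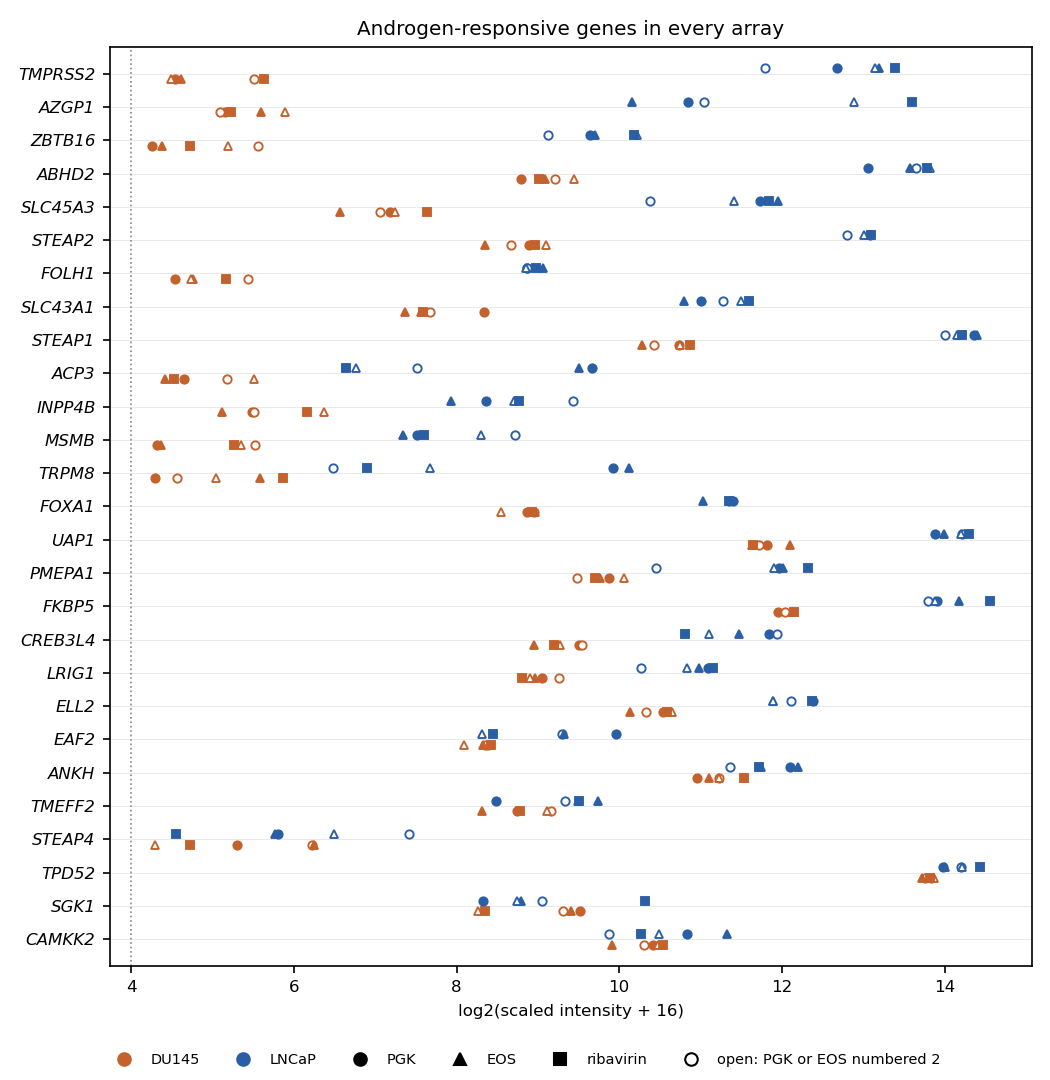
Level of the 27 measured genes in all 10 arrays, on the log2(scaled intensity + 16) axis, ordered by the difference between the lines; orange marks are DU145, blue marks LNCaP, circles PGK, triangles EOS and squares ribavirin, open circles and triangles are arrays numbered 2, and the dotted line is the floor of 4. From TMPRSS2 (7.86) to ELL2 (1.70) the colours are apart, and only 1 gene below them, TPD52, is also apart.

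The same contrast within each state gave 21 called genes in PGK cells, 20 in EOS cells and 18 in ribavirin-treated cells, all higher in LNCaP, against 15.2%, 15.3% and 7.51% of all genes called higher. The ribavirin state has 1 array a line, so its calls compare 1 array with 1 and take their spread from the other groups. SGK1 was called there, at 1.96 ± 0.56 (limma adjusted p = 0.0458), and was at -0.73 among the PGK controls. With array number within each line as a replicate block, which sets the lines side by side at number 1, 23 genes were called higher, against 17.9% of all genes higher and 19% lower. CAMKK2 (0.90) and EAF2 (1.10) entered, TPD52 (0.29, limma adjusted p = 0.131) was no longer called, and the differences of ACP3 and TRPM8 were 5.16 and 4.68. In DU145, 8 of the genes lay below the array's median in every array, so their fold depends on the pseudocount: TMPRSS2 differed by 6.57 with a pseudocount of 64 and by 8.87 with 1.

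Other genes of androgen action were read against the same background of 23.5% of all genes called higher in LNCaP and 24.9% lower. Of 6 measured partner and pioneer transcription factors, 4 were called higher in LNCaP, led by HOXB13 (6.79) and GRHL2 (6.53), and 1 lower, GATA3 (-1.64). Of 11 coregulators and chaperones, FKBP4 (1.80) and NCOA1 (1.35) were called higher and CCND1 (-0.89), MED1 (-0.57) and NCOA4 (-0.29) lower, a share near the background. With the replicate block FKBP4 (1.61) alone of these 11 was called, and within the PGK, the EOS and the ribavirin state 1 of the 11 was called in each. Among 3 other steroid receptors, NR3C1, the glucocorticoid receptor, was at 12.03 to 12.25 in DU145 and at 4.45 to 5.77 in LNCaP, where no array reached its median. Its difference of -7.14 ran from -5.80 with a pseudocount of 64 to -8.22 with 1, so no fold is given. NR3C2, the mineralocorticoid receptor, was called higher in LNCaP by 1.95. Of 7 genes known to be repressed by androgen, 3 were called higher in LNCaP, led by UGT2B15 (5.19) and UGT2B17 (4.61), and 2 lower, AKR1C3 (-5.81) and MET (-4.80). With the replicate block UGT2B15 and UGT2B17 were at 8.15 and 7.92. UGT2B17, near the floor in DU145, ran from 3.21 to 6.38 with the pseudocount and missed the threshold among PGK controls (5.44, limma adjusted p = 0.0509). Of 4 genes of androgen synthesis and inactivation, HSD17B4 (0.55) was called higher and HSD17B11 (-1.76) lower, again about the background share.

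EOS selection was compared with the PGK control in each line. In DU145, 0 of the 27 genes were called and 0 had an unadjusted p under 0.05, as in the fit with the replicate block, against 0% of all genes called and 226 with an unadjusted p under 0.05. The median difference was -0.07, beside -0.02 over all genes, with 10 genes above 0 and 17 below. Between the arrays numbered 1, 12 of the 27 were above 0, against 46.6% of all genes. Between those numbered 2, 14 were, against 50.4%. TRPM8 (0.88 ± 1.09), AZGP1 (0.62 ± 0.71) and ABHD2 (0.26 ± 0.26) had the largest positive values, and SGK1 (-0.58 ± 0.39), SLC43A1 (-0.54 ± 0.32) and STEAP4 (-0.50 ± 0.81) the most negative. TRPM8 and AZGP1 were near the floor, below the array's median in every DU145 array. SLC43A1 was at 8.33, 7.67, 7.36, 7.56 and 7.59 in DU145 and at 11.00, 11.27, 10.80, 11.50 and 11.59 in LNCaP. Its DU145 value rests on PGK 1, since arrays numbered 2 differed by -0.11. STEAP4 differed by 0.95 between the arrays numbered 1 and by -1.94 between those numbered 2, in opposite directions, and a second STEAP4 probe set, never above an array's median, gave 0.04.

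In LNCaP, 0 of the 27 genes were called between EOS and PGK cells, against 0% of all genes. An unadjusted p under 0.05 was reached by 2 of them, and by 596 of all genes, and with the replicate block by 6, with a smallest adjusted p of 0.531, and by 1297 of all genes. The median was 0.09, beside 0.05 over all genes, with 19 genes above 0 and 8 below. Between the arrays numbered 1, 15 of the 27 were above 0, against 55.7% of all genes. Between those numbered 2, 17 were, against 54.3%. TMPRSS2 had the largest positive value, 0.94 ± 0.38 (limma adjusted p = 0.999), with 0.53 between the arrays numbered 1 and 1.36 between those numbered 2. PMEPA1 was at 11.96, 10.45, 12.02, 11.91 and 12.32 in LNCaP and at 9.88, 9.49, 9.77, 10.05 and 9.71 in DU145. The low LNCaP PGK 2 array gave its difference of 0.76 ± 0.42, for the arrays numbered 1 differed by 0.06. Without PGK 2, TMPRSS2 was at 0.50 and PMEPA1 at 0.00.

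TMEFF2, on its probe set of highest mean, was at 8.49, 9.34, 9.74, 9.50 and 9.50 in LNCaP and at 8.74, 9.16, 8.32, 9.12 and 8.78 in DU145. Its EOS difference in LNCaP was 0.71 ± 0.37, and 0.28 to 1.13 with an array left out. Its other probe sets gave 2.60 and 0.76. The first of these was at 13.25 in PGK 1, 13.59 in EOS 1, 6.19 in PGK 2 and 11.06 in EOS 2. The second was at 7.62, 7.45, 4.10 and 5.79 in the same order. Both values thus rest on the low PGK 2 array. EAF2 was at 9.97, 9.30, 9.32, 8.32 and 8.44 in LNCaP and between 8.10 and 8.42 in DU145. Each EOS array of LNCaP was below the PGK array of its number, by -0.65 and -0.99, and the difference was -0.82 ± 0.37, with 0.21 and -0.10 on other EAF2 probe sets that were dim in every array. CREB3L4 was at 11.84, 11.94, 11.47, 11.11 and 10.81 in LNCaP and at 9.50, 9.55, 8.95, 9.27 and 9.20 in DU145. In both lines its EOS arrays lay below its PGK arrays. The EOS difference was -0.60 ± 0.22 in LNCaP (limma adjusted p = 0.999) and -0.41 in DU145, and the LNCaP ribavirin array was lower still. The share of all genes separated in this way was not counted. INPP4B was at 8.37, 9.43, 7.93, 8.70 and 8.77 in LNCaP and at 5.49, 5.51, 5.11, 6.37 and 6.16 in DU145, with an EOS difference of -0.58 ± 0.53 in LNCaP. The other INPP4B probe sets gave -0.49, -0.52 and, where dim in every array, 0.25.

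Within LNCaP, 1 control array was often the lowest. LNCaP PGK 2 held the lowest value for 11 of the 27 genes (40.7%), against 25.2% of all genes, and the ribavirin array the highest for 10 (37.0%), against 18.3% of all genes. The median range over the 5 LNCaP arrays was 1.13 for the 27 genes and 0.778 for all genes, beside 0.749 and 0.589 in DU145. PGK 2 is also the array in which MET, at 9.04, stood between the other LNCaP arrays and DU145, while NR3C1 was at 4.45 there, the lowest of all arrays. The part of this array in the EOS values was not tested beyond leaving it out.

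**Figure D2:**
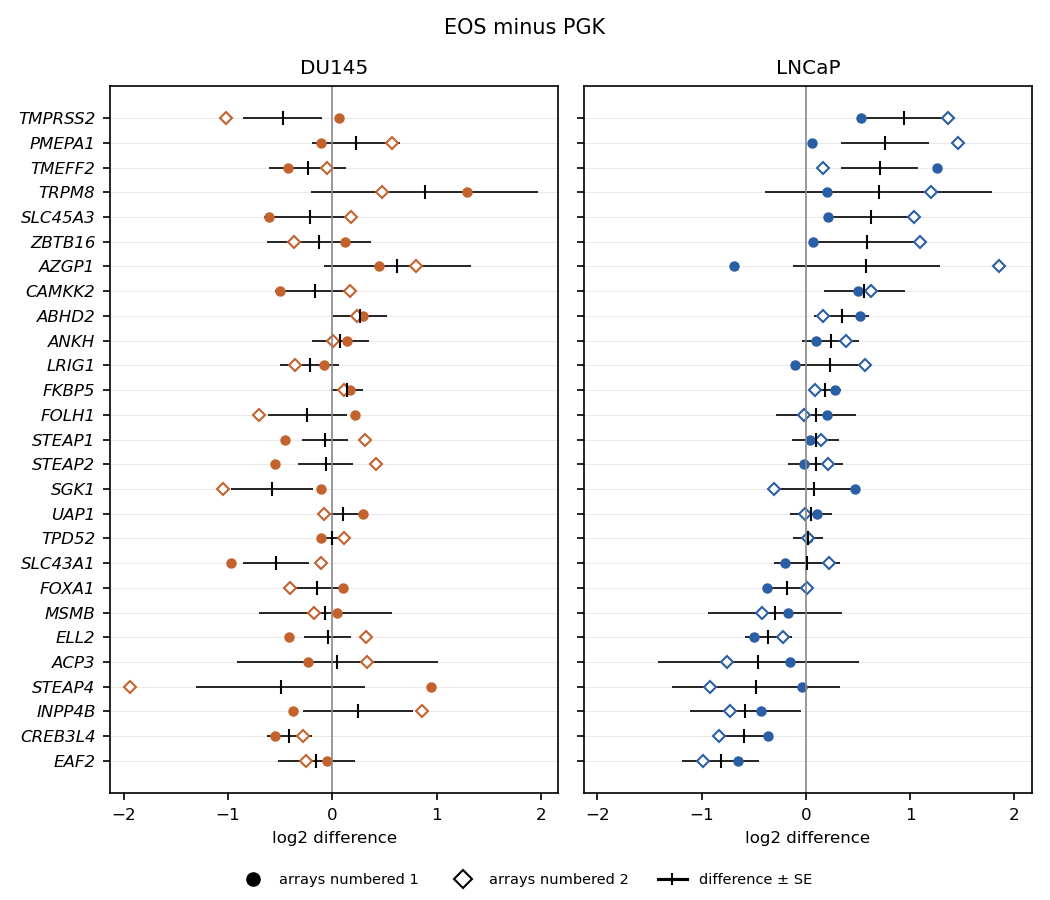
Difference between EOS and PGK cells of the 27 genes in each line, in log2 units, ordered by LNCaP; filled circles are arrays numbered 1, open diamonds arrays numbered 2, and the black bar is the difference ± SE of the fit. In LNCaP the TMPRSS2 pairs (0.53 and 1.36) and the EAF2 pairs (-0.65 and -0.99) lie on 1 side of 0, while the STEAP4 pairs of DU145 (0.95 and -1.94) lie on both.

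The difference between the lines in the EOS effect was tested directly. Again 0 of the 27 genes were called, against 0% of all genes, and 1 reached an unadjusted p under 0.05, or 3 in the blocked fit. The count over all genes at that p is not given here, so these numbers have no background beside them. TMPRSS2, INPP4B and ACP3, named next, lay below the array's median in every DU145 array. The largest values were TMPRSS2 (1.42 ± 0.54), TMEFF2 (0.94 ± 0.52) and SLC45A3 (0.84 ± 0.62), and the most negative INPP4B (-0.82 ± 0.75), EAF2 (-0.66 ± 0.52) and ACP3 (-0.50 ± 1.36). Beside these values, the summed scaled intensity of the 5 luminal markers in DU145 was 22431 and 15602 in the PGK arrays and 15874 and 12302 in the EOS arrays. Of these markers 3 had an unadjusted p under 0.05 and 0 were called, and their part in the DU145 values was not tested.

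Ribavirin was compared with the EOS cells of the same line, with a single treated array whose spread is taken to equal that of the rest. Both treated arrays are numbered 2, so each difference is also given against EOS 2 alone, with no test. In DU145, 0 of the 27 genes and 0% of all genes were called. An unadjusted p under 0.05 was reached by 1 of the 27, by 0 with the replicate block, and by 250 of all genes. TMPRSS2 differed by 1.09 ± 0.47 (1.15 against EOS 2), SLC45A3 by 0.73 ± 0.54 (0.40) and TRPM8 by 0.56 ± 1.33 (0.83). At the other end, STEAP4 differed by -0.55 ± 0.99 (0.43 against EOS 2), AZGP1 by -0.52 ± 0.86 (-0.67) and SGK1 by -0.49 ± 0.48 (0.08). The TMPRSS2 levels behind this, 4.49 to 5.64, lie near the floor, and the PGK 2 array, at 5.51, was near the treated one. TRPM8 and AZGP1 also lie near the floor, below the array's median in every DU145 array. The signs for STEAP4 and SGK1 turned against EOS 2 alone, and a second, dim TRPM8 probe set gave -0.95. COL3A1, a fibroblast collagen, was at 9.01 in DU145 EOS 2 and 8.63 in the ribavirin array, against 5.71 to 6.25 in the other DU145 arrays; its part in these values was not tested.

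In LNCaP, 0 of the 27 genes and 0% of all genes were called after ribavirin. Below an unadjusted p of 0.05 were 3 of the 27, or 2 with the replicate block, and 289 of all genes. SGK1 was at 10.31 in the treated array and between 8.32 and 9.05 in the other LNCaP arrays, a difference of 1.55 ± 0.48 (1.58 against EOS 2, limma adjusted p = 0.999). FKBP5, at 14.56, was also highest in the treated array, by 0.53 ± 0.19 (0.68 against EOS 2), and its other 2 probe sets gave 0.50 and 0.72. AZGP1 differed by 2.07 ± 0.86, but by 0.70 against EOS 2 alone and by 1.34 with the replicate block, since EOS 2 was itself at 12.89 and EOS 1 at 10.16. The most negative values were TRPM8 (-2.003 ± 1.33), STEAP4 (-1.58 ± 0.99) and ACP3 (-1.49 ± 1.18). Against EOS 2 alone these were -0.78, -1.94 and -0.12, so TRPM8 and ACP3 stood much nearer to EOS 2 than to EOS 1. Other ACP3 probe sets, both dim, gave 0.44 and -1.94. The glucocorticoid receptor NR3C1 was at 4.68 in the treated array, among the low LNCaP values.

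**Figure D3:**
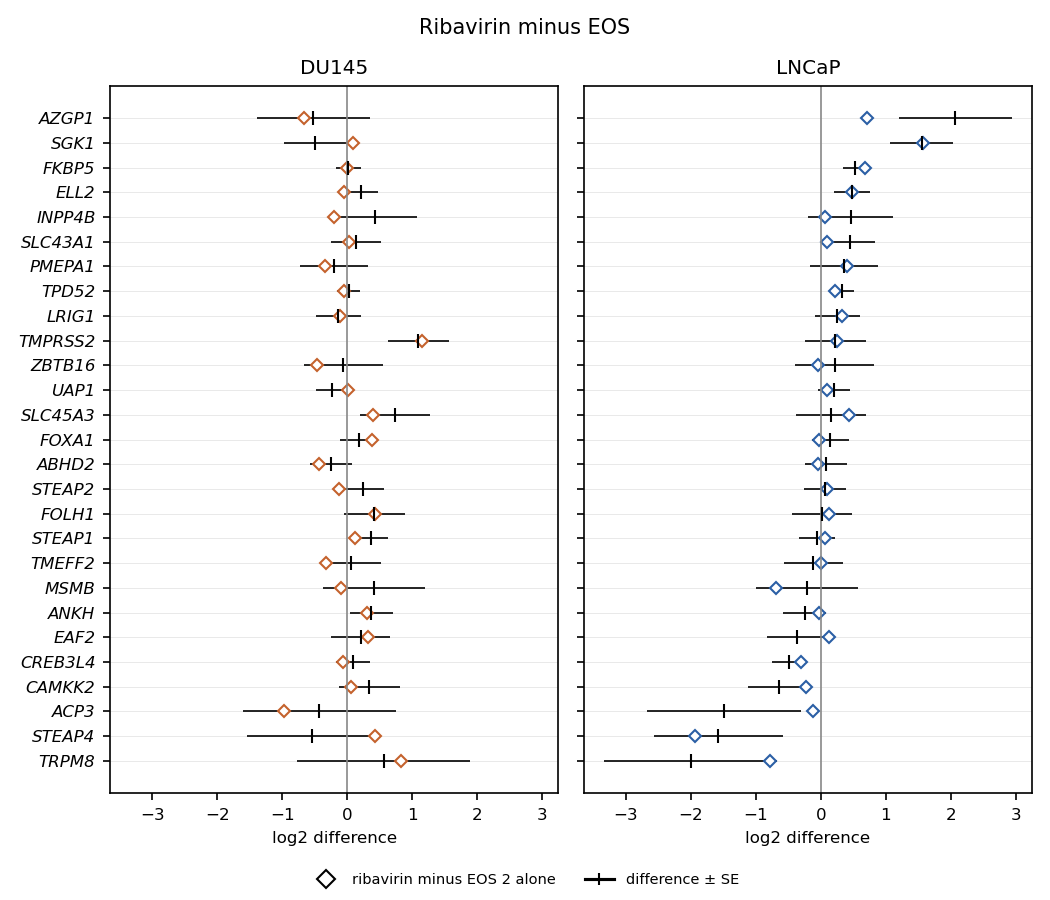
Difference between ribavirin-treated and EOS cells of the 27 genes in each line, in log2 units, ordered by LNCaP; the black bar is the difference ± SE against both EOS arrays and the open diamond the difference against EOS 2 alone. In LNCaP, SGK1 has both marks at 1.55 and 1.58, while AZGP1 (2.07 and 0.70) and TRPM8 (-2.003 and -0.78) have them apart.

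The ribavirin effect was tested for a difference between the lines. Of the 27 genes 0 were called, against 0% of all genes, and 1 reached an unadjusted p under 0.05, or 2 in the blocked fit. The count over all genes at that p is not given here either. AZGP1, TRPM8 and ACP3, named next, lay below the array's median in every DU145 array. AZGP1 gave 2.59 ± 1.22, SGK1 2.04 ± 0.68 and PMEPA1 0.56 ± 0.73 as the largest values. TRPM8 gave -2.56 ± 1.88, ACP3 -1.06 ± 1.67 and STEAP4 -1.03 ± 1.40 as the most negative. With 1 treated array a line these intervals are wide, and a p that misses the threshold does not show equal effects.

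The arrays numbered 2 were then compared with those numbered 1 within each line, over the PGK and the EOS pair. In LNCaP, 3 of the 27 genes were called lower in number 2, TRPM8, ACP3 and CAMKK2, and 0 higher, against 2.85% of all genes called lower and 3.6% higher. A further 8 had an unadjusted p under 0.05 without passing, which makes 11 of 27, against 3393 of all 14313 genes. The median was -0.13, beside 0.02 over all genes. Both pairs were above 0 for 8 genes and below 0 for 13. The share of all genes with both pairs on 1 side was not counted. The PGK and EOS number differences of LNCaP correlated at 0.484 over all genes, so these counts are not read as particular to the 27. In the PGK pair 12 of the 27 were above 0, against 50.8% of all genes, and in the EOS pair 10, against 51.3%.

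TRPM8 fell from 9.92 and 10.13 in LNCaP PGK 1 and EOS 1 to 6.48 and 7.68 in PGK 2 and EOS 2. The ribavirin array, also numbered 2, was at 6.90, so that all 3 LNCaP arrays numbered 2 were below both numbered 1. The difference was -2.95 ± 0.43, or 7.70-fold lower (limma adjusted p = 0.0089), with -3.44 for PGK and -2.45 for EOS. The dim second TRPM8 probe set differed by 0.22. ACP3 fell in the same arrays, from 9.66 and 9.50 to 7.51 and 6.76, with 6.64 after ribavirin, and the arrays of the numbers did not overlap. Its difference was -2.45 ± 0.41, or 5.45-fold lower (limma adjusted p = 0.0153), and its other probe sets, both dim, gave -1.57 and -0.65. CAMKK2 was lower by -0.90 ± 0.20 (limma adjusted p = 0.0382), with -0.96 for PGK and -0.84 for EOS. Its other probe sets gave 0.30, 0.26 and -0.11, so the CAMKK2 call rests on its brightest probe set and the gene's direction is not settled.

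Each of these calls rests on few arrays. Without LNCaP PGK 1, or without PGK 2, the comparison is left to the EOS pair, 1 array against 1, and both give the same differences. AZGP1 (2.73) was called higher in number 2 either way, and ACP3 (-2.75) lower without PGK 2. Without EOS 1, and likewise without EOS 2, only the PGK pair is left, again 1 array against 1. There the called genes were TRPM8 and PMEPA1, both lower. With a pseudocount of 1, TRPM8 alone was called, and with the mean of all probe sets of a gene EAF2 and TMEFF2 were. In that setting the 3 genes named above were at -1.36 for TRPM8, -1.56 for ACP3 and -0.11 for CAMKK2.

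At the other end, AZGP1 differed by 1.46 ± 0.50 (limma adjusted p = 0.129). Its PGK pair differed by 0.19 and its EOS pair by 2.73, so the gap lay in the EOS arrays. STEAP4 (1.17 ± 0.73) and MSMB (1.08 ± 0.39) were above 0 in both pairs without passing. SLC45A3 was at -0.94 ± 0.28 (limma adjusted p = 0.0848), below 0 in both pairs. The TMEFF2 probe set with the largest number difference was at 13.25 in PGK 1 and 13.59 in EOS 1. It was at 6.19 in PGK 2 and 11.06 in EOS 2, a mean difference of -4.80. The TMEFF2 probe set of highest mean over all arrays differed by 0.30.

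In DU145 the number comparison called 0 of the 27 genes, against 0% of all genes, with 4 at an unadjusted p under 0.05 and 1113 of all genes. MSMB (1.10 ± 0.39), ZBTB16 (1.05 ± 0.36) and ACP3 (0.81 ± 0.41) had the largest values, all at levels near the floor, and a second MSMB probe set gave -0.27. SGK1 (-0.68 ± 0.29), STEAP4 (-0.51 ± 0.73) and UAP1 (-0.28 ± 0.14) had the most negative. UAP1 was at 11.81, 11.72, 12.10, 11.64 and 11.64 in DU145 and at 13.88, 14.21, 13.99, 14.20 and 14.30 in LNCaP. The number effect itself was compared between the lines: 0 of the 27 genes were called, against 0.943% of all genes, and 7 had an unadjusted p under 0.05, as had 2009 of all genes. ACP3 (-3.26 ± 0.59, limma adjusted p = 0.054) and TRPM8 (-2.81 ± 0.61, limma adjusted p = 0.0941) came nearest, followed in size by SLC45A3 (-1.22 ± 0.39). STEAP4 (1.68 ± 1.03), AZGP1 (1.34 ± 0.71) and SGK1 (1.01 ± 0.41) lay on the other side. Number, deposited scale and the 3′ to 5′ ratio of ACTB move together in these arrays and cannot be told apart.

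**Figure D4:**
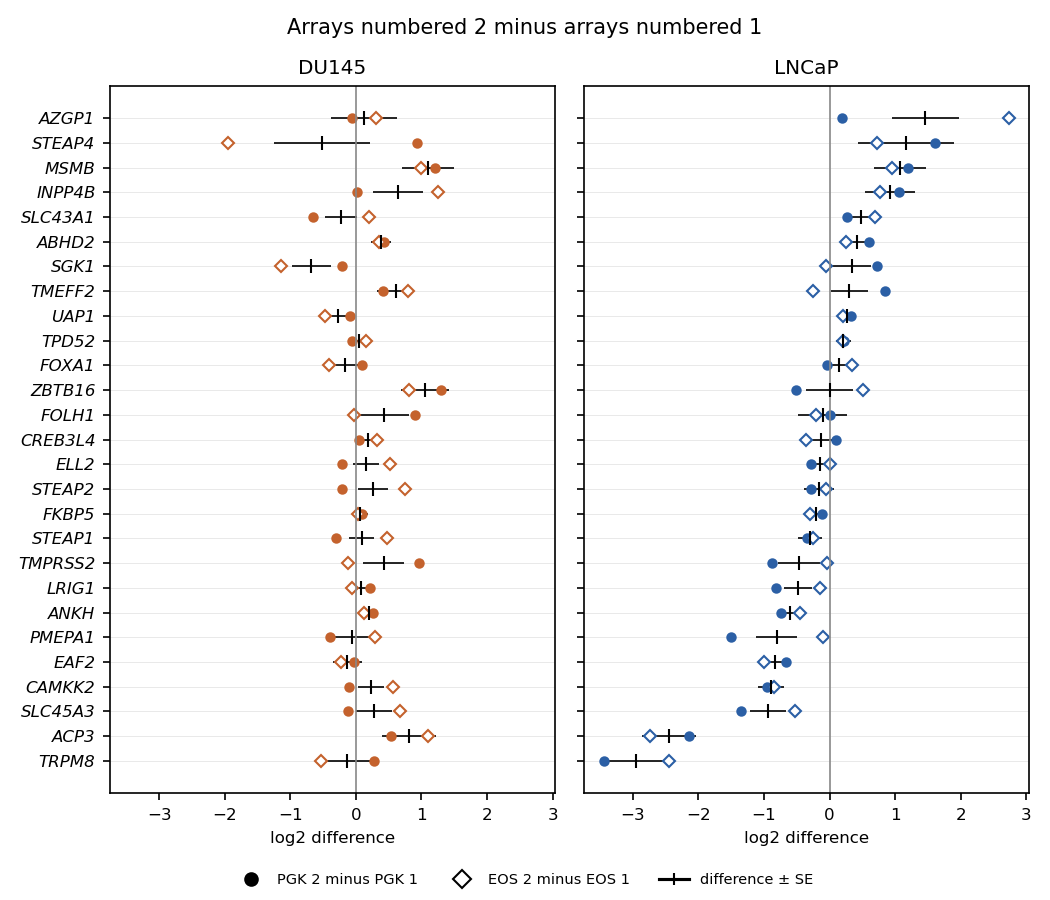
Difference between arrays numbered 2 and arrays numbered 1 for the 27 genes in each line, in log2 units, ordered by LNCaP; filled circles are the PGK pair, open diamonds the EOS pair and the black bar the difference ± SE. In LNCaP, TRPM8 (-3.44 and -2.45) and ACP3 (-2.15 and -2.75) lie apart from the other genes, while AZGP1 has its pairs at 0.19 and 2.73.

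Of the other genes of androgen action, 3 were called lower in the LNCaP arrays numbered 2, against 2.85% of all genes called lower and 3.6% higher. This count is over all those lists together, whose measured numbers are given above with the line difference. UGT2B15, which inactivates androgens by glucuronidation and is known to be repressed by them, was at 14.01 in PGK 1, 13.94 in EOS 1, 10.94 in PGK 2, 10.34 in EOS 2 and 9.34 after ribavirin. UGT2B17, its near-identical neighbour, was at 12.72, 12.33, 6.58, 8.19 and 7.39 in the same order. Both had all 3 arrays numbered 2 below both numbered 1, with differences of -3.33 ± 0.26 (limma adjusted p = 0.000559) and -5.14 ± 0.52 (limma adjusted p = 0.00229). Probe sets of these 2 genes may share signal, so their values are uncertain as separate genes. Their number effect also differed from that of DU145, by -4.45 (limma adjusted p = 0.00252) and -4.97 (limma adjusted p = 0.0275). ETV1, an ETS factor, was lower by -2.84 ± 0.39 (limma adjusted p = 0.00716), and of the luminal markers the keratin KRT8 was lower by -1.31 ± 0.18 (limma adjusted p = 0.00637). KRT8 was also at -1.97 in DU145 (limma adjusted p = 0.0548). None of the other lists had a called gene in the EOS or ribavirin comparisons, in which 0 of all genes were called.

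**Figure D5:**
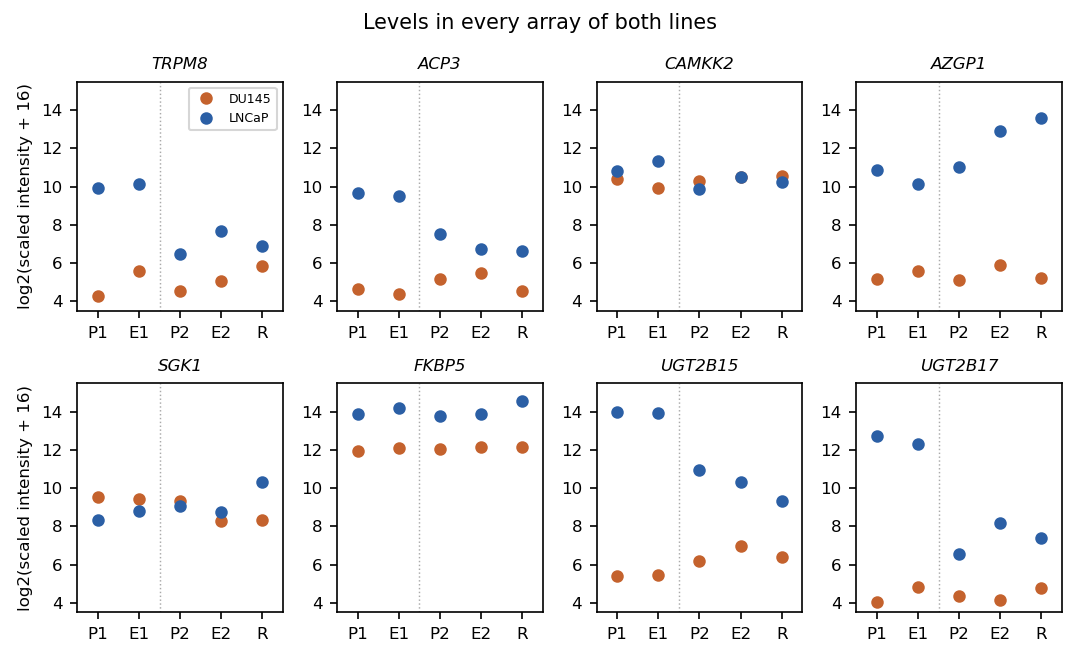
Level of 8 genes in every array on the log2(scaled intensity + 16) axis, with blue points for LNCaP, orange points for DU145, P for PGK, E for EOS with the array number, R for ribavirin and a dotted line between numbers 1 and 2. TRPM8, ACP3, UGT2B15 and UGT2B17 are high in the LNCaP arrays P1 and E1 and lower in P2, E2 and R, AZGP1 is highest in the LNCaP arrays E2 (12.89) and R (13.60), and SGK1 (10.31) and FKBP5 (14.56) are highest in R of LNCaP.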

How the data were processed

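Values were the deposited intensity of each probe set on 10 Affymetrix arrays. MAS5 and affy appear in the submitters' processing notes, without version or role, and the annotation of probe sets came from the platform table. The authors' intensities were on a linear scale that differed between arrays, so each array was rescaled to a 2% trimmed mean of 500 and log2(intensity + 16) was taken. Of 54675 probe sets, 62 controls were left out. The 33451 above the array's median in at least 2 arrays were kept, and 27494 of these with 1 symbol gave 14313 genes, each by its probe set of highest mean.

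Differences were fitted with limma 3.58.1 in R 4.3.3 (lmFit, eBayes with trend) on the means of 6 groups, with 4 residual degrees of freedom, and were called at a Benjamini-Hochberg adjusted p under 0.05 over all genes. Number comparisons used the same fit with array number within each line as a block, with 2 residual degrees of freedom. The labels do not say what the numbers mark; deposited scale and ACTB ratio split the arrays by number, so number was treated as a batch. With 2 arrays against 2, an exact permutation test cannot go below p = 0.333. Precision is limited by how few arrays there are.

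The genes and lists were chosen with earlier results of these data known. Genes were given with every array's value if called outside the line difference, if among the 3 highest or 3 lowest in a comparison, or among the 5 highest or 5 lowest line differences. Genes of other lists were named if called outside the line difference or among the 2 largest line differences in each direction. Alternatives were the pseudocount, the filter, the probe set rule, the scaling, the block, the arrays in the fit, the control arrays and leaving out each array.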

Additional observations from a re-analysis of the deposited data

How the results depend on the processing

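Between the lines, 21 to 23 of the 27 genes were called when each PGK or EOS array was left out in turn, against 22 with all, and 7 were called on the unscaled values, where 449 genes in all were called against 6931. Leaving out a ribavirin array gives the line difference no value. With the replicate block, 23 were called between the lines and 0 in each EOS and ribavirin comparison, as without it. The deviations of the same-numbered PGK and EOS arrays correlated at 0.123 in DU145 and 0.484 in LNCaP over genes. The LNCaP number comparison called 1 gene with a pseudocount of 1 and 1 to 3 with an array left out, against 3. The number difference between lines called 2 genes with a pseudocount of 64 and 0 to 1 with an array left out, against 0.

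Some named genes changed direction. In the line difference, TMEFF2 was at -0.042, CAMKK2 at -0.011 and SGK1 at -0.73 among PGK controls only, STEAP4 at -0.60 and SGK1 at -0.29 with the replicate block, and TPD52 at -0.13 over the mean of all probe sets. With an array left out, the line difference of CAMKK2 ran from -0.013 to 0.31, the DU145 EOS difference of STEAP4 from -1.47 to 0.48, the line difference in the EOS effect of ACP3 from -1.88 to 0.87, and the DU145 number difference of STEAP4 from -1.96 to 0.93. On unscaled values the DU145 EOS difference of STEAP4 was 0.028. For ribavirin in DU145, TRPM8 was at -0.19 over the mean of all probe sets, SGK1 at 0.085 and STEAP4 at 0.43 against EOS 2 alone, with ranges of -1.06 to 0.085 and -1.53 to 0.43 with an array left out. The line difference in the ribavirin effect of ACP3 was 0.57 with the replicate block, 0.86 against EOS 2 alone and -2.44 to 0.31 with an array left out. The causes were not tested. The number of arrays limits the precision.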
